A study of Mus musculus with 8 samples.

Results

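The genes described here are 35 genes that are known mainly from the exocrine pancreas (14 genes), the glandular stomach (12 genes) and the intestine (9 genes), and they were read in mouse liver. They were taken from the deposited array table as the probes whose annotation gives 1 of these symbols alone, with probes of the same gene averaged on each array. The table held 33 of the 35 among 19532 named genes, with all stomach and intestine genes and 12 of the 14 pancreas genes, and the lipase gene Pnlip and the trypsinogen gene Try4 were not analysed here. Intrinsic factor, listed as Gif, was found under its newer symbol Cblif. The genes were put together because of how they differed between the genotypes in earlier results of these data, so every mutant minus wild type difference of a member below is a description and no test. The further gene lists below were also chosen with earlier results of these data known, so their calls and adjusted p are descriptive too.

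Livers came from 4 mice carrying the mper2brdm1 mutation and from 4 wild-type mice, on a mixed background of 129sv and C57Bl/6, with 1 one-colour Agilent array per mouse. All mice belonged to 1 cohort and had been starved for 8 h when killed. The Brdm1 allele is known as a germline deletion within the protein-interaction domain of the clock protein PER2, so it is carried by every organ and not by the liver alone. Sex, age and the way the liver was dissected are not given in the sources used here.

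The exocrine pancreas is built of acinar cells, which make digestive zymogens and lipases in very large amounts. The glandular stomach secretes acid, pepsinogen and protective mucus, and its G cells release the hormone gastrin. The intestinal lining carries brush-border enzymes and mucus-producing goblet cells, and its identity depends on the homeobox proteins CDX1 and CDX2. Hepatocytes are not known as a main source of these products, while the pancreas, stomach and duodenum lie against the liver in the abdomen.

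Transcription of acinar genes is known to depend on a complex of PTF1A with the RBPJL protein, which binds an E-box, CANNTG, beside a TTTCCC box. The 3 pancreas promoters that hold both letters in this arrangement are shown because these genes varied together over the 8 livers, as described below. The sequences are the 250 bases before the gene start in RefSeq (build GRCm38.p6), written 5′ to 3′ on the gene's strand, with both boxes in capitals. All 3 genes lie on the minus strand, Cela1 at chr15:100687921-100688170, Ctrb1 at chr8:111691011-111691260 and Cel at chr2:28563404-28563653.
Cela1: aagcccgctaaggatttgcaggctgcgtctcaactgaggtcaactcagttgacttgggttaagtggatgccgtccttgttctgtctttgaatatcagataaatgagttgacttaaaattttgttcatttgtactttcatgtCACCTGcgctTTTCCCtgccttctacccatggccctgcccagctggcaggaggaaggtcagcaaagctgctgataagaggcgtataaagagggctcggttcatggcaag
Ctrb1: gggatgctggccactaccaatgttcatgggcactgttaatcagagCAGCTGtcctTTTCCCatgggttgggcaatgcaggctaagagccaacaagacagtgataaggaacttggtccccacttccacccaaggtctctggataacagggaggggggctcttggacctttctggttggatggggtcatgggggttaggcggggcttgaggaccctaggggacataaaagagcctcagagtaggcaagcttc
Cel: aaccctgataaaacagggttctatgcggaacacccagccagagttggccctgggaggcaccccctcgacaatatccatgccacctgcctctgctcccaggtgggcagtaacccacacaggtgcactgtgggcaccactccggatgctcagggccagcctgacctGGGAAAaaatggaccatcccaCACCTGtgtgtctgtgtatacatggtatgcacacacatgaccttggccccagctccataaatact
In Cela1 the E-box begins at -109 and the TTTCCC box at -99 from the gene start, and in Ctrb1 they begin at -205 and -195, so that the boxes lie 10 bases apart from start to start. In Cel the pair lies on the other strand, where GGGAAA begins at -86 and the E-box at -65, which is 21 bases apart. Both strands were searched for the boxes at these 2 distances, which were chosen after the promoters had been seen. The pair was found in 3 of 11 pancreas promoters in the RefSeq table, in 0 of 15 stomach and intestine promoters and in 0.204% of all 32851 promoters. Alone, CANNTG was found in 66.2% and TTTCCC in 21.9% of all promoters, and a match is a string of letters and not a measured site.

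Values are on the log2 scale, relative to each probe's median over the 8 arrays, after the arrays had been brought to a common 75th percentile. The log base is not stated and was taken as 2 from how far the values spread, and a higher value was read as a brighter probe. Centred values carry no expression level, so they show which livers were higher or lower than the others for a gene, and neither how abundant a transcript was nor whether it lay above background. In whole-liver RNA, a smaller number of cells of a type and less RNA per cell cannot be told apart.

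Over all 28042 rows tested, limma called 1828 higher and 2505 lower in the mutants at a Benjamini-Hochberg adjusted p under 0.05 (42.2% higher), and with the values as deposited 2449 were higher and 1537 lower (61.4% higher). The median difference of all rows was 0.08 after the shift and 0.20 as deposited. The dark corner, a control feature that carries no gene sequence, read 0.25, -0.06, 0.32 and -0.02 in mutant replicates 1 to 4, against 0.72, -1.02, -0.70 and -0.07 in wild type replicates 1 to 4. Wild type replicates 2 and 3, low on this feature, were the 2 lowest arrays in 26.4% of all rows. Wild type replicate 1 stood apart on the second principal component, at -120.1, against 0.39 to 41.9 on the other arrays. The 10 measured hepatocyte genes varied over the arrays by 0.25 (transferrin, Trf) to 1.04 (Apoa1), with 0.33 for albumin (Alb). The median range over all rows was 1.16, and centred values carry no level, so these ranges are no check of the tissue. Of these 10 genes 1 fell (8.93% of all rows), which was the transthyretin gene Ttr (-0.71 ± 0.11 SE, n = 4 each, limma adjusted p = 0.00587). Ttr was not called without wild type replicates 3 and 4, at a difference of -0.69 (adjusted p = 0.0677). The hepatocyte gene Fah differed by -0.31 (adjusted p = 0.13) and Hnf4a by 0.29 (adjusted p = 0.13), and neither passed. Hnf4a passed in 1 of 18 alternative fits (limma adjusted p = 0.0458).

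Among the 33 members, 4 were called higher in the mutants (6.52% of all rows) and 1 lower (8.93% of all rows). These were the stomach genes Gast, Tff1 and Muc6 and the intestinal gene Lct on the higher side, and the intestinal gene Fabp2 on the lower side. The values of the genotypes did not overlap for 8 members (24.6% of all rows), which were 7 members that were higher (10.0% of all rows) and 1 that was lower (14.6% of all rows). Nothing is read from these counts, since the members were chosen on the same contrast. The organ groups differed in sign. The median difference was -1.78 over the pancreas genes, 0.80 over the stomach genes and 0.92 over the intestine genes, against 0.08 over all rows.

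**Figure D1:**
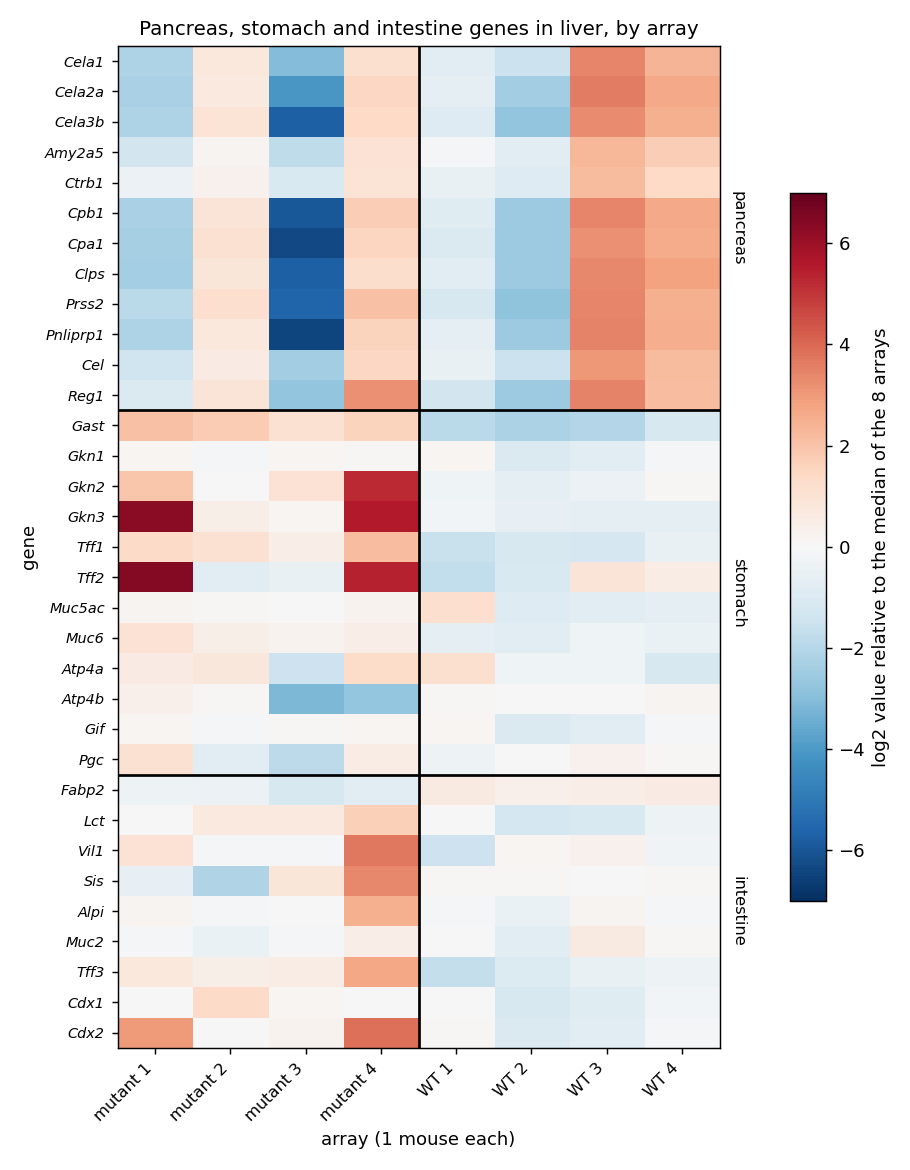
Log2 value relative to the 8-array median (colour) for the 33 measured genes (rows, grouped by organ) on each array (columns, mutant mice left of the line and wild-type mice right). The 12 pancreas genes form one block of like columns, red in wild type replicates 3 and 4 and deepest blue in mutant replicate 3, whereas the stomach and intestine genes do not share 1 pattern.

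The pancreas genes moved as a block from mouse to mouse, and the block did not follow genotype. All 12 were highest in wild type replicate 3, which was the highest array in 9.74% of all rows, and all 12 were lowest in mutant replicate 3, the lowest array in 9.72% of all rows. Their range over the 8 arrays ran from 3.26 to 9.91 with a median of 8.35, against a median range of 1.16 over all rows. A range of at least 6 was reached by 9 of the 12, and by 0.738% of all rows.

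Pnliprp1, which encodes a lipase-related protein of pancreatic juice, had the widest range. It read -2.19, 0.75, -6.42 and 1.57 in mutant replicates 1 to 4, against -0.70, -2.52, 3.49 and 2.56 in wild type replicates 1 to 4. Mutant replicate 3 lay far below every other liver, and the 2 highest livers were both wild type, yet the other wild-type livers lay below mutant replicates 2 and 4. The means were -1.57 ± 3.61 in mutants and 0.71 ± 2.80 in wild type (SD, n = 4 each), and the difference of -2.28 ± 2.01 (SE) was smaller than the spread within either genotype.

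The lipase cofactor gene Clps read -2.36, 0.83, -5.71 and 1.26 in mutants, against -0.78, -2.56, 3.39 and 2.79 in wild type. The carboxypeptidase gene Cpa1 read -2.34, 1.06, -6.30 and 1.48 in mutants, against -1.01, -2.56, 3.22 and 2.58 in wild type. Its sister Cpb1 read -2.27, 0.89, -5.92 and 1.70 in mutants, against -0.84, -2.57, 3.40 and 2.63 in wild type. The mice thus came in 1 and the same order for all 3 genes. Within the mutants Cpa1 was 219-fold higher in replicate 4 than in replicate 3, and within wild type it was 54.9-fold higher in replicate 3 than in replicate 2. Both gaps exceed the 4.24-fold distance between the genotype means, with wild type the higher.

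The elastase genes behaved like the carboxypeptidases. Cela3b read -2.17, 0.96, -5.73 and 1.38 in mutants, against -0.91, -2.74, 3.32 and 2.49 in wild type. Cela2a read -2.26, 0.69, -4.10 and 1.47 in mutants, against -0.64, -2.45, 3.57 and 2.67 in wild type. Cela1 read -2.17, 0.76, -3.04 and 1.15 in mutants, against -0.71, -1.51, 3.40 and 2.40 in wild type. The 3 genes differ most in how low mutant replicate 3 lay, while wild type replicate 3 stood between 3.32 and 3.57 for all of them.

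The trypsinogen gene Prss2 read -1.90, 1.16, -5.59 and 2.05 in mutants, against -1.11, -2.81, 3.44 and 2.50 in wild type. Trypsinogen genes are near-identical copies, so a probe of one may also read others. The bile salt-dependent lipase gene Cel read -1.41, 0.60, -2.43 and 1.44 in mutants, against -0.55, -1.48, 3.02 and 2.23 in wild type. The narrowest ranges were those of the amylase gene Amy2a5 (4.08) and the chymotrypsinogen gene Ctrb1 (3.26). Ctrb1 read -0.41, 0.33, -1.05 and 0.96 in mutants, against -0.50, -0.90, 2.21 and 1.37 in wild type. A narrow range still kept the same livers at both ends.

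Reg1, whose product is a secreted regenerating protein of the pancreas, was the exception at the upper end. It read -0.99, 0.91, -2.75 and 3.21 in mutants, against -1.29, -2.54, 3.50 and 2.16 in wild type, so that mutant replicate 4 and not wild type replicate 4 came second. In the other 11 members wild type replicates 3 and 4 were the 2 highest arrays, which was so in 6.93% of all rows. For 8 of the 12 the full order was the same, from mutant replicate 3 as the lowest over wild type 2, mutant 1, wild type 1, mutant 2, mutant 4 and wild type 4 to wild type 3 as the highest. Only 21 of the 28042 rows (0.0749%) had this order. Genotype accounted for 0.596% (Reg1) to 21.5% (Amy2a5) of the sum of squares of a pancreas member, with a median of 12.3%, against 33.4% over all rows.

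**Figure D2:**
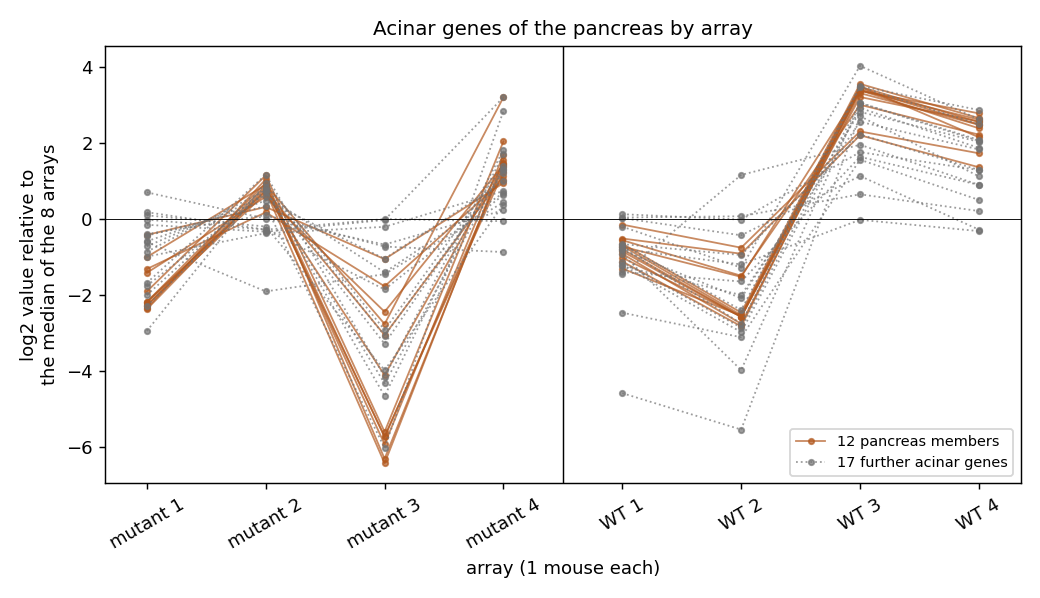
Log2 value relative to the 8-array median (vertical axis) on each array (horizontal axis, mutant mice left and wild-type mice right) for the 12 pancreas members (solid lines) and 17 further acinar genes (dotted lines), with lines joined within a genotype only to follow a gene. Members are highest in wild type replicate 3 and lowest in mutant replicate 3, and 15 of the 17 further genes peak in wild type replicate 3.

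Further acinar genes, which are not members, followed the same livers. Of 17 measured, 15 were highest in wild type replicate 3, 9 were lowest in mutant replicate 3 and 12 had wild type replicates 3 and 4 as the 2 highest arrays. The chymotrypsin gene Ctrc read -2.28, 0.78, -4.32 and 1.33 in mutants, against -0.73, -2.74, 3.49 and 2.51 in wild type. The zymogen granule gene Sycn read -1.75, 0.71, -3.27 and 1.31 in mutants, against -0.66, -2.38, 3.51 and 2.88 in wild type. Zg16, which had been put among the intestinal genes and is also known from zymogen granules, read -2.07, 0.79, -3.48 and 1.88 in mutants, against -0.74, -2.80, 2.91 and 2.08 in wild type.

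By genotype, 0 of the 17 further acinar genes passed limma (15.5% of all rows). Those with the smallest p were Rbpjl, which encodes the acinar partner of PTF1A (-0.71 ± 0.24, adjusted p = 0.0887), the trypsin inhibitor gene Spink3 (-0.998 ± 0.50, adjusted p = 0.201), the mucosal scavenger gene Dmbt1 (-1.52 ± 0.79, adjusted p = 0.208), the acinar transcription factor gene Bhlha15 (0.65 ± 0.35, adjusted p = 0.216) and Sycn (-1.58 ± 1.56, adjusted p = 0.478). Rbpjl and Dmbt1 each passed in 1 of 18 alternative fits (limma adjusted p = 0.0353 and 0.0486). The median difference of the 17 was -0.71, against 0.08 over all rows. The regulator genes Ptf1a, Rbpjl and Bhlha15 varied less than the 12 members. Ptf1a and Rbpjl were highest in wild type replicate 3, while Rbpjl was lowest in mutant replicate 4 (-0.86). Bhlha15 ranged over 1.90 and was highest in mutant replicate 1 (0.71). Ptf1a ranged over 1.56 and read -0.01, -0.27, 0.01 and -0.05 in mutants, against 0.03, -0.42, 1.14 and -0.27 in wild type, and Rbpjl ranged over 1.52 with wild type replicates 3 and 4 as its 2 highest arrays.

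**Figure D3:**
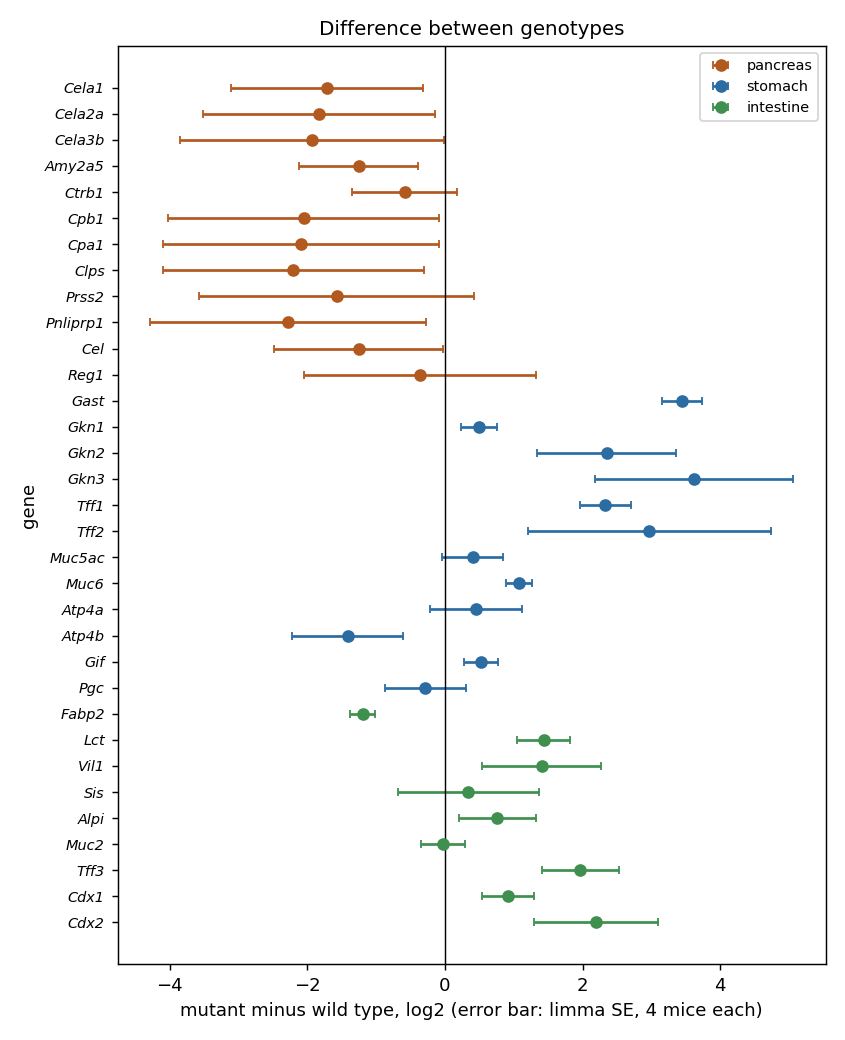
Difference between mutant and wild-type means in log2 units (horizontal axis, positive where mutants are higher) with the limma standard error (bars, 4 mice in each genotype) for each measured gene (vertical axis, coloured by organ). The 12 pancreas genes lie between -2.28 and -0.36 with standard errors of 0.76 to 2.01, and Gast (3.45 ± 0.29), Tff1, Muc6, Lct and Fabp2 lie farthest from 0 for their error.

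The stomach genes fell into separate patterns. Gast, which encodes the acid-stimulating hormone gastrin, was high in every mutant. It read 2.06, 1.78, 1.08 and 1.57 in mutants, against -1.91, -2.21, -2.06 and -1.11 in wild type. The lowest mutant lay above the highest wild-type mouse by more than the spread within either genotype. The means were 1.62 ± 0.41 in mutants and -1.82 ± 0.49 in wild type (SD, n = 4 each), a difference of 3.45 ± 0.29 (SE) or 10.9-fold, and genotype accounted for 95.1% of its sum of squares.

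Tff1, a trefoil peptide of gastric surface mucus, read 1.33, 1.05, 0.47 and 2.18 in mutants, against -1.53, -1.11, -1.15 and -0.50 in wild type. Muc6, the mucin of gastric glands, read 1.03, 0.42, 0.26 and 0.49 in mutants, against -0.67, -0.71, -0.30 and -0.44 in wild type. In both genes every mutant exceeded every wild-type mouse, with differences of 2.33 ± 0.37 and 1.08 ± 0.19 (SE). Without wild type replicates 2 and 3 neither was called, at differences of 2.28 and 1.11. Muc5ac, the mucin of gastric surface cells, did not share this pattern as the mean of its 2 probes. It read 0.19, 0.08, -0.02 and 0.23 in mutants, against 1.18, -0.90, -0.76 and -0.67 in wild type. The high value in wild type replicate 1 came from 1 probe (2.57, against -0.21 on the other). On the other probe every mutant (0.10 or higher) lay above every wild-type mouse (-0.05 or lower). Muc5ac was called higher when probes were tested alone, and as a mean without wild type replicate 1.

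Gkn3 and Tff2 were high in mutant replicates 1 and 4 and not in the other mutants, and Gkn2 was highest in the same 2 mice. The gastrokine gene Gkn3 read 6.29, 0.43, 0.16 and 5.56 in mutants, against -0.18, -0.59, -0.63 and -0.65 in wild type. Tff2, the trefoil peptide of gastric gland mucus, read 6.42, -0.82, -0.53 and 5.40 in mutants, against -1.75, -1.07, 0.89 and 0.50 in wild type. Mutant replicates 2 and 3 lay among the wild-type values for Tff2 and just above them for Gkn3. Gkn2, another gastrokine, read 1.94, -0.03, 0.99 and 5.24 in mutants, against -0.28, -0.65, -0.38 and 0.07 in wild type. Its mutant replicate 3 also lay above every wild-type mouse.

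The differences of these 3 genes were large and imprecise, at 3.62 ± 1.44 for Gkn3, 2.97 ± 1.77 for Tff2 and 2.35 ± 1.01 for Gkn2 (SE, n = 4 each). Without mutant replicates 1 and 4 they came to 0.81, -0.32 and 0.79. Mutant replicates 1 and 4 were the 2 highest arrays for 6 of the 12 stomach and 4 of the 9 intestine members, and for 6.47% of all rows. The same 2 livers differed in the pancreas genes, which had a median over members of -2.17 in mutant replicate 1 and of 1.46 in mutant replicate 4.

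Parietal and chief cell genes did not follow Gast. Atp4b, a subunit of the gastric proton pump, read 0.37, 0.08, -3.14 and -2.68 in mutants, against 0.07, -0.04, 0.05 and 0.20 in wild type. Mutant replicates 3 and 4 were low while the wild-type livers lay within 0.24 of each other. Its partner Atp4a differed by 0.45 ± 0.67 (SE), and its 2 probes did not give the same order of mice. The pepsinogen gene Pgc read 1.05, -0.81, -1.82 and 0.51 in mutants, against -0.36, 0.05, 0.31 and 0.08 in wild type, a difference of -0.29 ± 0.59 (SE).

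Gkn1 and Gif (Cblif) tracked the dark corner. Gkn1, the third gastrokine, read 0.15, -0.11, 0.15 and 0.08 in mutants, against 0.16, -0.998, -0.75 and -0.12 in wild type. Gif read 0.15, -0.09, 0.11 and 0.12 in mutants, against 0.13, -1.03, -0.75 and -0.16 in wild type. Both lay within 0.6 of the dark corner on all 8 arrays, as did 10.9% of all rows. So did the mean of the 2 Muc5ac probes, but not each probe. In wild type replicate 1 these probes read 2.57 and -0.21, where the dark corner read 0.72. The differences of Gkn1 and Gif, 0.49 and 0.52, came to 0.05 and 0.09 without wild type replicates 2 and 3, the arrays with a low dark corner. Genotype accounted for 34.8% (Gkn1) and 38.5% (Gif) of the sum of squares. The median of 33.4% over all rows was thus also reached by genes that tracked the dark corner.

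**Figure D4:**
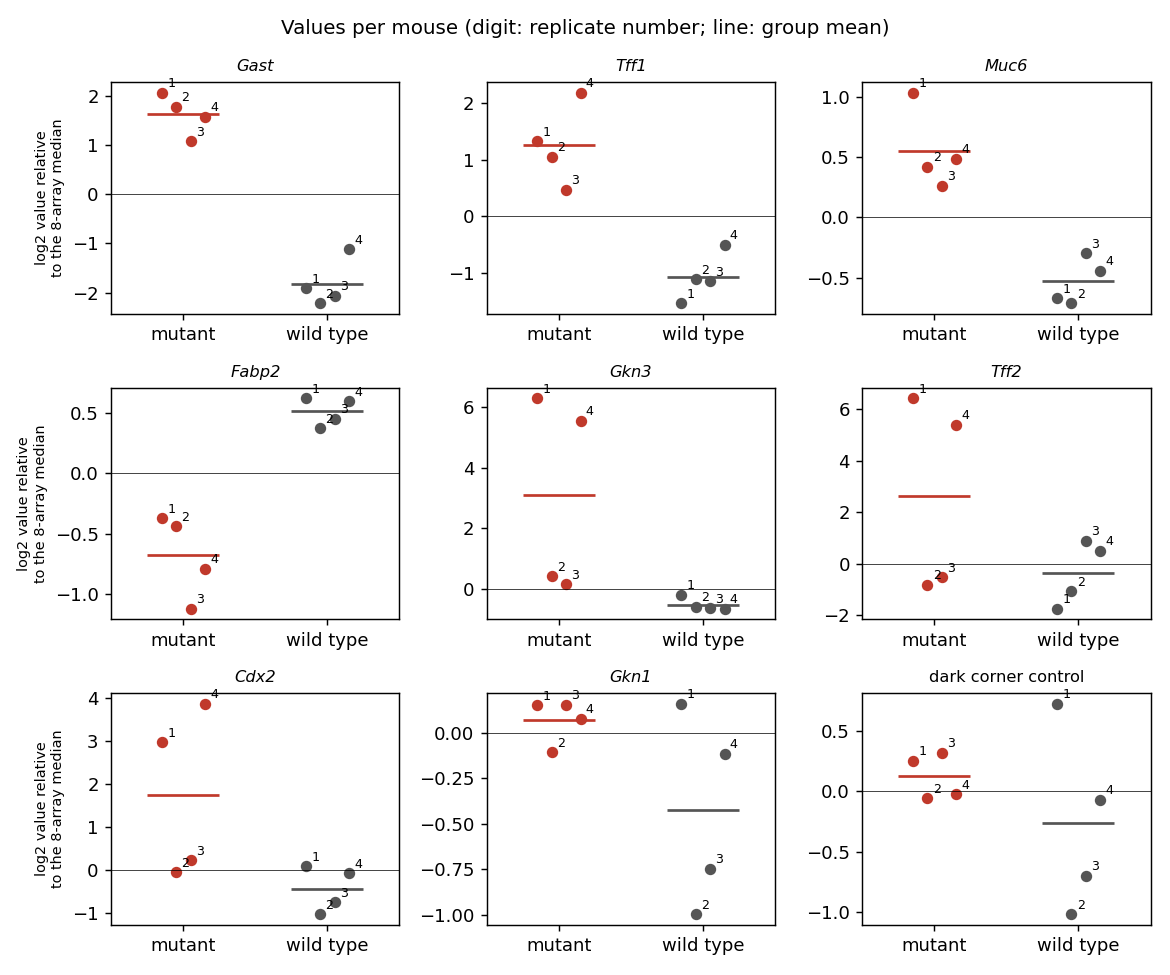
Log2 value relative to the 8-array median (vertical axes, scaled per panel) for 8 members and the dark corner control feature in mutant (left) and wild-type (right) mice, with the replicate number beside each point and a line at the group mean. Gast, Tff1, Muc6 and Fabp2 separate the genotypes, Gkn3, Tff2 and Cdx2 are high in mutant replicates 1 and 4, and Gkn1 follows the dark corner with low wild type replicates 2 and 3.

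Of 17 further glandular stomach genes 2 rose and 1 fell by limma (6.52% and 8.93% of all rows). Capn8, a calpain of gastric pit cells, rose by 2.26 ± 0.38 (4.78-fold, adjusted p = 0.00742), with 4 of 4 mutants above every wild-type mouse. Cckbr, the gastrin receptor gene, rose by 0.87 ± 0.18 (adjusted p = 0.0162). Ctse, which encodes the protease cathepsin E, fell by 1.19 ± 0.15 (adjusted p = 0.00291), reading -0.38 or lower in mutants against 0.36 or higher in wild type. The histamine-synthesis gene Hdc differed by 0.52 (adjusted p = 0.0814) and the anion transporter gene Slc26a9 by -1.03 (adjusted p = 0.195). Hdc passed in 2 of 18 alternatives (lowest limma adjusted p = 0.0325). The median difference of the 17 was 0.30, against 0.08 over all rows. Without mutant replicates 1 and 4 neither Capn8 nor Cckbr was called, at differences of 2.34 and 0.94 (adjusted p = 0.0578 and 0.088). Neither was called with the replicate number as a block, nor was Cckbr without wild type replicates 2 and 3 (0.93) or 3 and 4 (0.95). The call of Ctse held in all 18 alternatives.

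Among the intestine members Fabp2, the intestinal fatty acid-binding protein gene, was low in every mutant. It read -0.37, -0.44, -1.12 and -0.79 in mutants, against 0.62, 0.37, 0.45 and 0.60 in wild type. Its 2 probes gave -1.26 and -1.13, and the difference of -1.19 ± 0.18 (SE, n = 4 each) placed wild type 2.29-fold higher. It was the only member called lower, and its call was lost without wild type replicates 3 and 4, where the difference was -1.18.

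Lct, the brush-border lactase gene, read 0.04, 0.67, 0.69 and 1.65 in mutants, against -0.05, -1.24, -1.05 and -0.34 in wild type. The genotypes did not overlap but came within 0.1 of each other, and wild type replicates 2 and 3 were lowest, as on the dark corner. Without those 2 mice the difference of 1.43 ± 0.39 (SE) came to 0.96 and was no longer called. Leaving out mutant replicate 2, 3 or 4 alone, or wild type replicate 2, 3 or 4 alone, also ended its call. Tff3, the trefoil peptide of goblet cells, read 0.74, 0.38, 0.51 and 2.73 in mutants, against -1.68, -0.98, -0.51 and -0.34 in wild type, with every mutant higher and a difference of 1.97 ± 0.56 (SE).

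The homeobox genes did not move together. Cdx2 read 2.98, -0.05, 0.23 and 3.87 in mutants, against 0.10, -1.02, -0.74 and -0.07 in wild type, with the same 2 high mutants as Gkn3 and Tff2. Without mutant replicates 1 and 4 its difference of 2.19 ± 0.90 (SE) came to 0.53, with wild type replicates 2 and 3 lowest, as on the dark corner. Cdx1 read 0.00, 1.35, 0.14 and 0.02 in mutants, against -0.01, -1.10, -0.84 and -0.20 in wild type. Mutant replicate 2 alone stood out, and wild type replicates 2 and 3 were lowest, as on the dark corner.

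Mutant replicate 4 was the highest array for 6 of the 9 intestine members, against 13.7% of all rows. Vil1, which encodes the microvillus protein villin, read 0.99, -0.14, -0.14 and 3.68 in mutants, against -1.45, 0.13, 0.32 and -0.22 in wild type. The sucrase-isomaltase gene Sis read -0.57, -2.10, 0.87 and 3.37 in mutants, against 0.08, 0.06, 0.01 and 0.09 in wild type. The alkaline phosphatase gene Alpi was high in mutant replicate 4 on 1 probe (4.80) and not on the other (0.19). The goblet cell mucin gene Muc2 differed by -0.03 ± 0.32 (SE) as the mean of 4 probes whose single differences ran from -0.86 to 0.64. When probes were tested alone, Muc2 was called lower.

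Of 24 further intestinal genes 1 rose and 1 fell by limma (6.52% and 8.93% of all rows). Mutant replicate 4 was the highest array for 15 of the 24. Gpa33, an epithelial surface antigen gene, rose by 1.53 ± 0.33 (adjusted p = 0.0183, with 4 of 4 mutants above wild type), and the trehalase gene Treh fell by 0.61 ± 0.15 (adjusted p = 0.0329, with 4 of 4 mutants below wild type). The goblet cell gene Clca3 (Clca1 in the annotation) differed by 3.89 ± 1.45 (adjusted p = 0.116), the homeobox gene Isx by 1.69 ± 0.65 (adjusted p = 0.127) and the guanylin gene Guca2a by 0.54 ± 0.22 (adjusted p = 0.152). Clca3 read 2.54, -0.41, 0.72 and 6.35 in mutants, against -1.87, 0.47, -2.79 and -2.18 in wild type. The median difference of the 24 was 0.79. Without mutant replicates 1 and 4 neither Gpa33 nor Treh was called, at differences of 1.29 and -0.65. Gpa33 was not called with the replicate block or without wild type replicates 2 and 3 (1.26) or 3 and 4 (1.69) either. Treh was not called in 12 of 18 alternatives, among them the values as deposited and each fit that left out 1 mouse other than mutant replicate 4 and wild type replicate 1.

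Of 16 endocrine genes of the islets and gut, which are not members, 4 rose and 0 fell by limma (6.52% and 8.93% of all rows). Gip, an incretin gene of the upper intestine, read 1.22, 0.43, 0.75 and 1.28 in mutants, against -1.52, -1.06, -0.39 and -0.82 in wild type, and rose by 1.87 ± 0.29 (3.65-fold, adjusted p = 0.00523). Pdx1, a transcription factor gene of pancreas and duodenum, rose by 2.30 ± 0.43 (adjusted p = 0.0114), and the cholecystokinin gene Cck rose by 1.41 ± 0.35 (adjusted p = 0.0329). The fourth was the somatostatin gene Sst (1.14 ± 0.29, adjusted p = 0.0338), named after its value was seen. The median difference over the 16 genes was 0.91, with 13 above and 3 below 0. The islet hormone genes did not share 1 pattern. The insulin gene Ins2 (-1.12 ± 1.04) and the glucagon gene Gcg (-0.34 ± 0.41) did not pass and were highest in wild type replicate 4. The pancreatic polypeptide gene Ppy did not pass and was high in mutant replicate 2 alone (3.52). Without mutant replicates 1 and 4 none of the 4 was called, at differences of 1.54 for Gip, 1.61 for Pdx1, 0.83 for Cck and 1.11 for Sst, in a fit that called 1733 of all rows against 4333 with all mice. Pdx1 was not called without wild type replicates 2 and 3 (1.98) or 3 and 4 (2.42) either. Sst was not called in 9 of 18 alternatives, among them the replicate block and leaving out any single mutant, wild type replicate 1 or wild type replicate 3. For Cck, leaving out mutant replicate 1, mutant replicate 4 or a single wild-type mouse also ended the call (adjusted p up to 0.187 over all alternatives).

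Markers of other tissues beside the liver moved in other ways. Of 21 squamous epithelium genes, known from the forestomach and oesophagus among other places, 10 fell and 0 rose by limma (8.93% and 6.52% of all rows). The median difference of the 21 was -1.71. Crct1, a cornified envelope gene, fell by 7.32 ± 0.68 (adjusted p = 0.000907), and the keratin genes Krt4 and Krt15 fell, with differences of -6.58 ± 0.71 and -5.76 ± 0.69 (adjusted p = 0.00151 and 0.0022). Wild type replicate 2, and not replicate 3, was the highest array for 16 of the 21. The median over the list ran from -0.72 to -0.41 in mutants, against 0.52 to 2.08 in wild type.

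Of 12 smooth muscle genes 3 fell and 1 rose by limma (8.93% and 6.52% of all rows). The intermediate filament gene Synm fell by 2.33 ± 0.38 (adjusted p = 0.00698), the leiomodin gene Lmod1 fell by 0.71 ± 0.18 (adjusted p = 0.0383) and the myosin kinase gene Mylk rose by 0.49 ± 0.12 (adjusted p = 0.0304), while the third that fell was the enteric actin gene Actg2 (-0.59, adjusted p = 0.046), named after its value was seen. The calls of Lmod1, Actg2 and Mylk were lost under 13, 13 and 10 of 18 alternatives, and Synm was not called without wild type replicates 2 and 3 (-2.11) or 3 and 4 (-2.23). Of 8 cholangiocyte genes 1 rose (6.52% of all rows), which was the transcription factor gene Sox9 (0.88 ± 0.19, adjusted p = 0.0193). Sox9 was not called in 6 of 18 alternatives, among them the replicate block and leaving out wild type replicate 3 (0.81) or 4 (0.88). The water channel gene Aqp1 differed by 0.30 (adjusted p = 0.198) and the chloride channel gene Cftr by 0.73 (adjusted p = 0.252). Of 7 mesothelial genes 0 passed (15.5% of all rows), with Upk3b at -0.59 (adjusted p = 0.271), Bnc1 at -0.38 (adjusted p = 0.484) and Wt1 at 0.32 (adjusted p = 0.498). The part of neighbouring tissue in the values of the pancreas, stomach and intestine genes was not tested.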

How the data were processed

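The file analysed holds 1 column per array for 4 mutant and 4 wild-type livers, grouped by the labels' titles, and every sample column was used. The numbers the authors deposited were treated as log2. A normalisation is stated in the series' design text, with no method given in the sources used here, and the numbers show that each probe was centred on its median over the arrays. The number of arrays limits the precision. Of 41252 probes, 78 control features were set aside. The annotation named 1 gene for 32664 probes, more than 1 for 45 and no gene for 8465. Averaging left 28042 rows.

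Because the 75th percentiles of the deposited columns differed by more than 0.1, each array was shifted to a common one, by -0.09 to -0.01 in mutants and by 0.05 to 0.07 in wild type. All rows entered 1 fit of mutant against wild type in limma 3.58.1 under R 4.3.3, using lmFit with eBayes, two-sided tests and Benjamini-Hochberg adjustment. The procedure was tested on simulated data. It recovered 46 of 100 changes of 1 and 68 of 100 changes of 2 on the log2 scale, with 5 false calls. The simulated noise was independent for each row, without shared array effects, and far fewer rows were changed than were called in the data. These counts therefore do not carry over directly to the measured arrays. A gene that did not pass may still differ. Figures used matplotlib 3.10.9. The members and all gene lists (143 further genes in 9 lists, 132 measured) were chosen with earlier results of these data known. Every member is named. Of each other list the 3 genes with the smallest p were named, and 5 for further acinar, stomach and intestinal genes. Alternatives were other scalings, array weights, a robust eBayes, the replicate number as a block, medians over probes, single probes and leaving out mice. The 2 fits without mutant replicates 1 and 4 and without wild type replicates 3 and 4 were chosen after seeing the data. Nothing says whether the arrays share a batch.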

Additional observations from a re-analysis of the deposited data

Results flagged for a closer look

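Dixon's critical value for 4 samples was applied to 72 sets of 4 mice (33 genes and 3 organ medians in each genotype). In 7 sets the gap of 1 mouse to the nearest other exceeded it. For independent sets chance gives about 1 in 20, but these sets share mice, and the medians are taken from the same genes. In the mutants, replicate 4 was apart for Alpi (2.49), for Tff3 (2.73) and for the median over the intestine genes (2.49). That median is the value of Alpi itself, which was high on 1 probe (4.80) and not on the other (0.19). Mutant replicate 2 was apart for Cdx1 (1.35). In wild type, replicate 1 was apart for Muc5ac (1.18) and for Gkn3 (-0.18), and replicate 2 was the lowest for the median over the intestine genes (-0.78).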

How the results depend on the processing

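Over all rows 4333 changed, and 6702 probes when probes were tested alone. The count was 2030 with a block for the replicate number, 1733 without mutant replicates 1 and 4, 1766 without wild type replicates 2 and 3, 1516 without wild type replicates 3 and 4, and 2884 to 3696 without 1 mouse, with 2884 for wild type replicate 3. Of the members 5 passed, against 3 with the replicate block (Gast, Tff1 and Fabp2) and 4 to 6 without 1 mouse. Without wild type replicates 2 and 3 there were 2 (Gast and Fabp2), and without wild type replicates 3 and 4 there were 3 (Gast, Tff1 and Muc6). When probes were tested alone 7 members had a called probe, with Muc5ac higher and Muc2 lower beside the 5. Tff3 also passed with the values as deposited and without mutant replicate 4. Same-numbered mutant and wild-type mice deviated from their group means with correlations of 0.02, 0.08, -0.10 and 0.10, so the numbers were not taken as pairs.

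The median difference of the pancreas genes, -1.78 over all mice, turned to 0.37 without wild type replicates 3 and 4 and ran from -2.80 to -0.57 without 1 mouse, with -0.57 for mutant replicate 3 and -0.89 for wild type replicate 3. Single pancreas genes changed sign there too, except Amy2a5. The stomach median ran from 0.45 to 1.10 and the intestine median from 0.17 to 1.17 over all alternatives, both lowest without mutant replicates 1 and 4. Of 528 values for single members 7 moved by more than the spread within genotypes. Mylk, outside the members, differed by -0.082 when the median of its probes was taken. Signal over background could not be given, since the centred values carry no levels.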

Other observations

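Of the 21 rows whose mice came in the order shared by most pancreas genes, 20 had a range of at least 3 on the log2 scale and 17 of these had a gene symbol. Besides genes of the lists above, they were the trypsinogen gene Try5, the disulfide isomerase gene Pdia2 and 2210010C04Rik, all found by this order after the values were seen. Try5 read -1.40, 1.24, -3.42 and 1.87 in mutants, against -1.19, -2.64, 3.03 and 1.87 in wild type. Pdia2, whose product is known from the pancreas, read -1.61, 0.72, -2.92 and 1.27 in mutants, against -0.67, -1.97, 2.70 and 1.81 in wild type.

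In 11 rows mutant replicates 1 and 4 both exceeded all other mice by at least 2, the highest count among all pairs of arrays, where other pairs had 0 to 7. The 7 with a symbol were Gkn3, Tff2, Cdx2, the goblet cell gene Agr2, the Paneth cell defensin gene Defa23 and the homeobox genes Esx1 and Nkx6-2. Defa23 read 4.47, -0.05, 0.77 and 6.64 in mutants, against 0.10, -0.99, -0.73 and -0.10 in wild type. Mutant replicate 4 alone led by at least 2 in 130 rows, where single arrays ranged from 58 (wild type replicate 3) to 507 (wild type replicate 1). The named gene with the widest lead was the membrane mucin gene Muc13, which read 0.14, -0.09, 0.10 and 5.82 in mutants, against 0.14, -1.02, -0.73 and -0.14 in wild type. It was followed by S100g, a calcium-binding protein gene, which read 1.49, -0.14, 0.71 and 6.49 in mutants, against -2.12, -0.30, 0.19 and -1.06 in wild type.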
